A study of Mus musculus with 10 samples.

Results

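The genes described are those that encode the proteins of the cytosolic ribosome, measured by RNA-seq of whole mouse lung. They were taken by name: a row of the count table belonged to the set when its Entrez ID maps to a protein-coding mouse gene whose symbol is Rpl or Rps followed by a number (with an optional letter, X or l), or is Rplp0, Rplp1, Rplp2 or Rpsa. Symbols of pseudogenes ending in -ps, of the Rps6k kinases and of the mitochondrial ribosome were left out. That gave 82 genes of 27179 in the table, 51 of the large subunit and 31 of the small subunit, and no measured value enters the rule. After removal of genes with low counts, 78 of the 82 were tested, 47 large and 31 small, among 15301 tested genes. The 4 that were not tested are Rpl10l, Rpl39, Rpl39l and Rpl32l. Core subunits encoded under other symbols, such as Rps3a1, are outside the naming rule.

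The study compared 5 EpithelialKO mice (numbers 17, 18, 20, 21 and 22) with 5 Flox mice (numbers 2 to 6). Both groups carried floxed alleles of Ern1 on both chromosomes (IRE1α fl/fl). Ern1 encodes IRE1α, a kinase and ribonuclease of the endoplasmic reticulum membrane that splices Xbp1 mRNA. The EpithelialKO mice also carried Cre at the Shh locus on 1 chromosome (Shh Cre/+), which acts in the lineage of the lung epithelium, whereas the Flox mice had no Cre (Shh +/+). The labels give no age, sex or batch. Each sample was the lung of 1 mouse, so the RNA holds epithelial and all other lung cells, and fewer cells of a type cannot be told apart from less RNA per cell.

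A cytosolic ribosome joins a small subunit, which binds and decodes the mRNA, to a large subunit, which forms peptide bonds and holds the exit tunnel for the new chain. Most of the protein components are needed in nearly equal numbers, and the mRNAs of ribosomal proteins are among the most abundant in any cell. In vertebrates the promoters of these genes start transcription within a run of pyrimidines. The mRNA therefore begins with a 5′ terminal oligopyrimidine (TOP) tract through which mTORC1 and LARP1 control translation. Surfactant-secreting alveolar type 2 (AT2) cells translate much of their protein on ribosomes bound to the endoplasmic reticulum, where IRE1α resides.

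Total counts ranged from 16234895 to 18870247 in the EpithelialKO mice and from 14983829 to 21224412 in the Flox mice. Ern1, the targeted gene, had 17.3 ± 6.52 CPM (counts scaled by library size after TMM) in EpithelialKO lungs and 16.8 ± 5.28 CPM in Flox lungs (SD, n = 5 each). Its log2 fold change was 0.04 ± 0.27 (SE), with a Benjamini-Hochberg adjusted p of 0.975 by the quasi-likelihood test of edgeR, so counts over the whole gene in whole lung did not separate the labels. Sftpc, the surfactant gene of AT2 cells, was the most counted gene in 9 of the 10 lungs, and Scgb1a1, of club cells, in EpithelialKO mouse 17. Flox mice 4 and 6 stood apart in 3949 and 4866 Xist counts and no count from Y-linked genes. All EpithelialKO mice and the other Flox mice had 2 to 61 Xist counts and at least 2462 Y-linked counts. The median and counts of the set's fold changes, the tested X-linked genes and the ratio of Rpl36al to Rpl36a counts are also given without Flox mice 4 and 6. Most other values, such as the shares of counts and most single genes, are given with these mice only.

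The RefSeq promoter table for GRCm38.p6 held 74 annotated starts for 62 of the 82 genes. Windows of 30 bases around a start, from 10 bases before it to 20 from it on, are printed for genes on which the results turn, to show which of them carry a TOP-like run at their annotated start. Capitals mark the longest run of C and T, and coordinates are on GRCm38.p6. The following have runs of at least 8 bases.
Rps26 (chr10:128626487-128626516, minus strand): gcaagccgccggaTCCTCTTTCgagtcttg
Rps6 (chr4:86857348-86857377, minus strand): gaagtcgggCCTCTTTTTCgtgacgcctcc
Rplp2 (chr7:141447641-141447670, plus strand): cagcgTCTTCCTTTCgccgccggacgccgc
Rps27 (chr3:90213629-90213658, minus strand): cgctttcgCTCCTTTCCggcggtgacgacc
Rpl13a (chr7:45128726-45128755, minus strand): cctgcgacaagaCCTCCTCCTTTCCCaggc
The next windows belong to genes with runs of at most 7 bases, among them the gene with the lowest p of the set and the paralogs compared below.
Rps4x (chrX:102189372-102189401, minus strand): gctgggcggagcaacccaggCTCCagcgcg
Rpl26 (chr11:68901556-68901585, plus strand): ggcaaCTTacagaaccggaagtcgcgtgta
Rpl5 (chr5:107900518-107900547, plus strand): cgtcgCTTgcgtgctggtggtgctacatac
Rpl36a (chrX:134585644-134585673, plus strand): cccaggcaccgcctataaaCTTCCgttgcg
Rpl36al (chr12:69184048-69184077, minus strand): ccgtcgctcaggttcagttccgaCTTCCgc
Rps27l (chr9:66946076-66946105, plus strand): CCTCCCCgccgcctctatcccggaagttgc
Rpl3l (chr17:24727816-24727845, plus strand): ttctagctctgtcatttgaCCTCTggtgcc
An annotated start can lie some bases from the one used in lung, so a wider stretch was searched, from 20 bases before the start to 50 from it on. On the sense strand it held an unbroken run of at least 8 pyrimidines at 51 of the 74 starts (68.9%), against 25.4% of all 32851 starts in the table. The letters CTTTCC, which can be part of such a run, occurred there at 20 of the 74 starts (27.0%), against 3.24% of all starts. CCGGAAGT, the letters bound by ETS factors, occurred on either strand of the 300-base promoter at 12 of the 74 starts (16.2%), against 3.89% of all. These matches describe the letters only. The window of Rps4x lacks a long run and that of Rps26 has one, and these genes had the highest fold changes of the small subunit apart from Rps27a.

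Ribosomal protein mRNAs took a larger mean share of the lung's counts in EpithelialKO mice than in Flox mice, with overlap between the groups. The share was 7.42%, 6.18%, 7.78%, 6.25% and 7.34% in EpithelialKO mice 17, 18, 20, 21 and 22, against 5.90%, 6.98%, 6.32%, 6.49% and 5.73% in Flox mice 2, 3, 4, 5 and 6. EpithelialKO mice 17, 20 and 22 lay above every Flox mouse, and EpithelialKO mice 18 and 21 lay among the Flox mice. The means were 6.99 ± 0.73% in EpithelialKO lungs and 6.29 ± 0.496% in Flox lungs (SD, n = 5 each). Large subunit genes took 4.08 ± 0.419% in EpithelialKO lungs and 3.70 ± 0.274% in Flox lungs. Small subunit genes took 2.91 ± 0.312% in EpithelialKO lungs and 2.59 ± 0.223% in Flox lungs. The shares were not tested.

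The balance between the subunits was close in both groups. The ratio of large to small subunit counts was 1.40 ± 0.0177 in EpithelialKO lungs, with a range of 1.39 to 1.43, and 1.43 ± 0.0217 in Flox lungs, with a range of 1.40 to 1.46 (SD, n = 5 each). EpithelialKO mouse 18 and Flox mouse 3 bring the ranges into overlap. The difference of -0.023 in this ratio became -0.00202 without the 5 genes with the most counts (Rps14, Rpsa, Rpl41, Rpl13a and Rplp0).

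**Figure D1:**
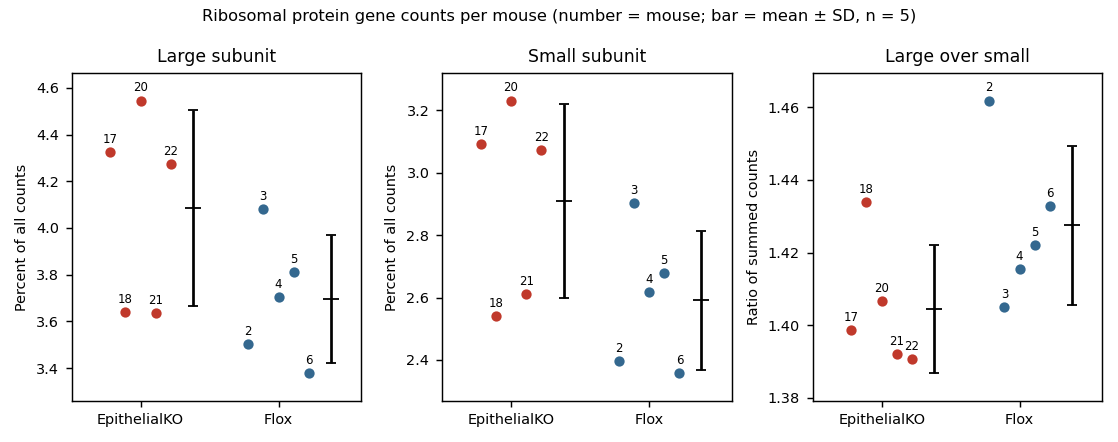
Percent of each mouse's counts taken by large subunit genes (left) and small subunit genes (middle), and the ratio of the summed counts (right). Each point is 1 mouse with its number, EpithelialKO left of Flox, and the black bar is the mean ± SD of 5 mice; EpithelialKO mice 17, 20 and 22 sit above all Flox mice in both shares and mice 18 and 21 do not.

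Gene by gene, both subunits leaned the same way. Of the 78 tested genes, 72 had a log2 fold change of EpithelialKO over Flox above 0, where 50.1% of all tested genes did. The count was 43 of 47 for the large subunit and 29 of 31 for the small subunit. The median log2 fold change was 0.21 for both subunits, against 0.00 for all tested genes, and the values ran from -0.17 to 0.46. None of the 78 passed the adjusted threshold of 0.05 in edgeR, which 0.0392% of all tested genes passed, and the lowest adjusted p of the set was 0.114. At an unadjusted p under 0.05, 31 of 78 were higher in EpithelialKO lungs (18 large, 13 small) and 0 were lower. Of all tested genes, 5.87% met that rule in the higher and 6.52% in the lower direction. The typical standard error was 0.106, and the 95% interval reached a median of 0.224 to either side of the estimate, about as far as the median difference.

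**Figure D2:**
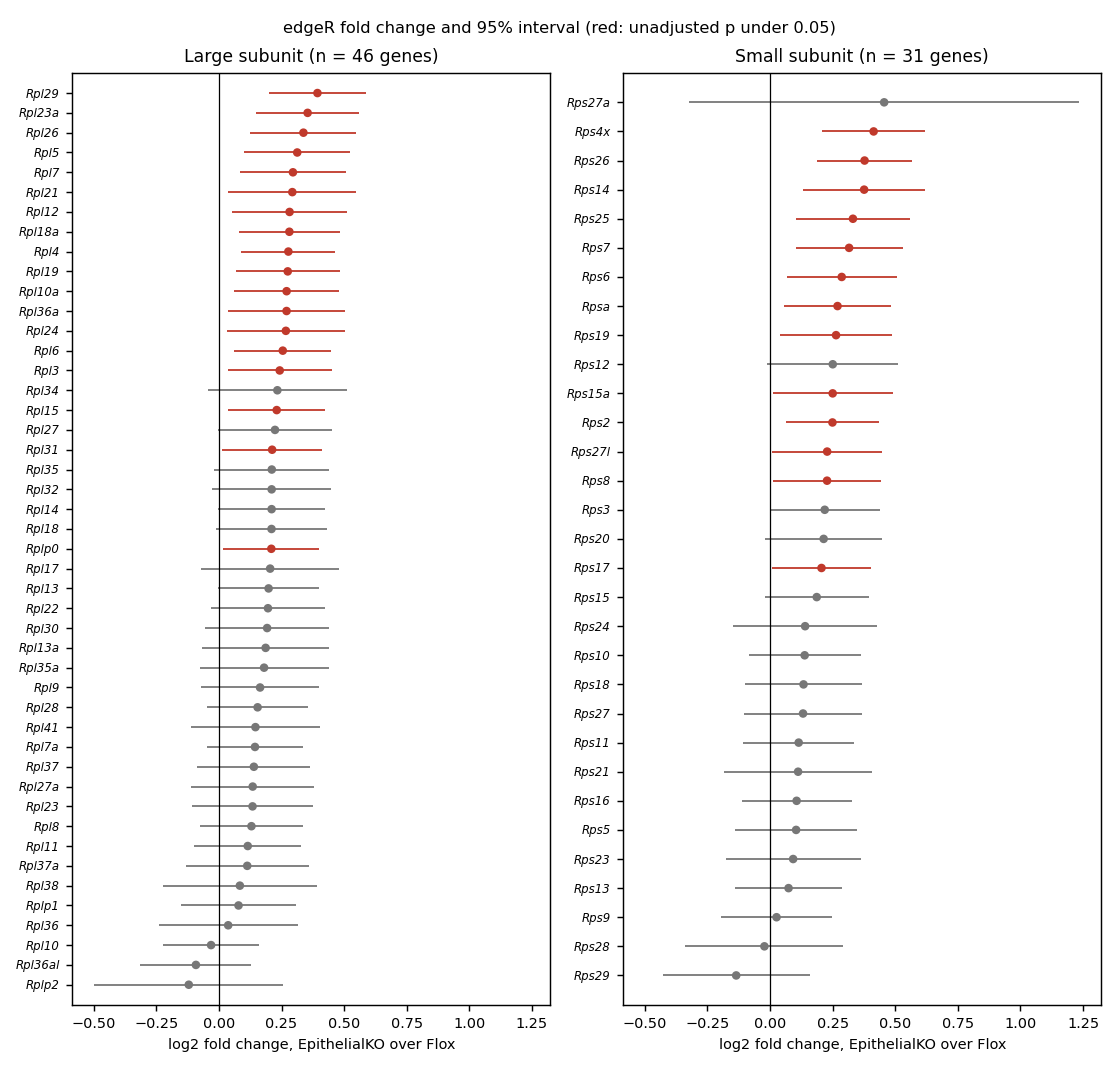
Log2 fold change of EpithelialKO over Flox from edgeR for each tested large subunit gene (left, 46 genes, without Rpl3l) and small subunit gene (right, 31 genes), ordered by size, with 95% intervals as lines. Red marks an unadjusted p under 0.05; the red genes all lie above 0, and none passed the adjusted threshold.

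Deviations were shared by the genes of a mouse. EpithelialKO mouse 20 had the highest CPM of the 10 mice in 38 of the 78 genes and EpithelialKO mouse 22 in 22. Flox mouse 6 had the lowest CPM in 45 genes and Flox mouse 2 in 15. The median deviation over the genes, as log2(CPM + 1) minus the mean of the 10 mice, was 0.21, -0.08, 0.26, -0.07 and 0.21 in EpithelialKO mice 17, 18, 20, 21 and 22, against -0.17, 0.09, -0.12, -0.02 and -0.27 in Flox mice 2, 3, 4, 5 and 6. Genes of a mouse mostly deviated to the same side, so they are not independent of each other. Flox mice 3 and 5 were above EpithelialKO mice 18 and 21 by this measure.

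**Figure D3:**
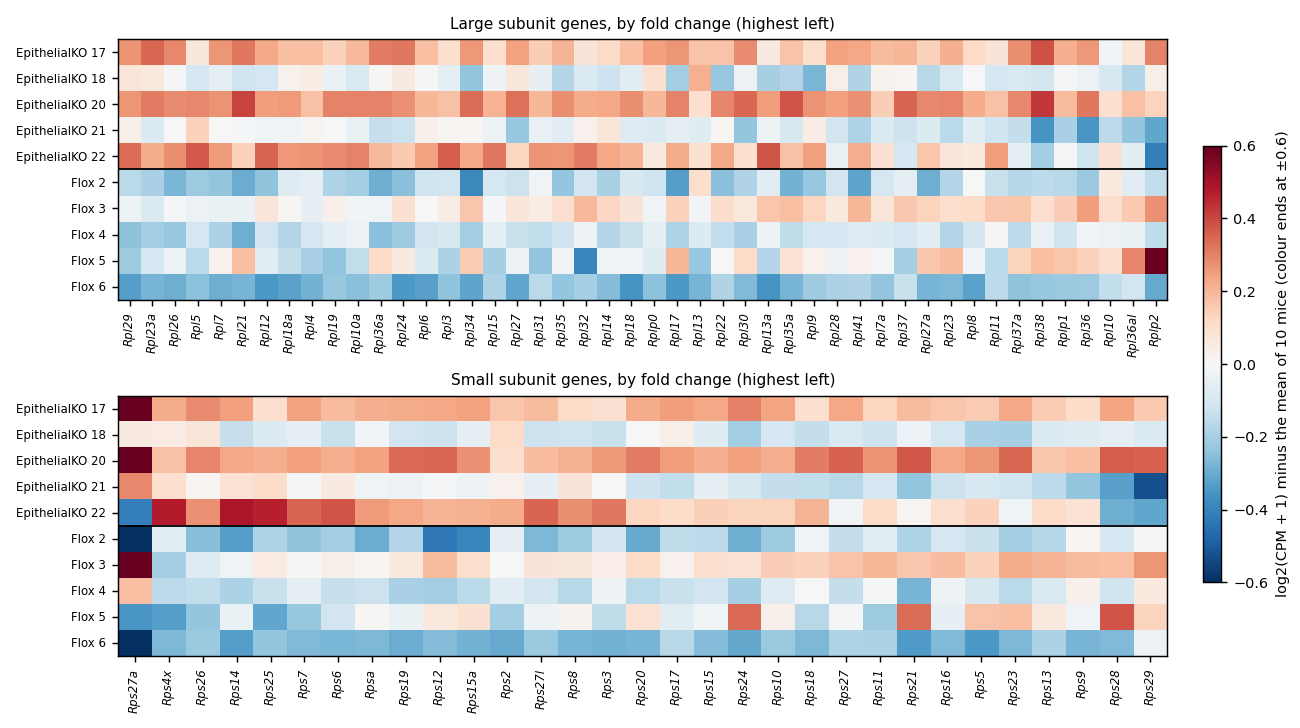
Deviation of each mouse from the mean of the 10 mice, as log2(CPM + 1), for large subunit genes (top, without Rpl3l) and small subunit genes (bottom), with EpithelialKO mice above Flox mice and genes ordered by fold change. Rows of EpithelialKO mice 17, 20 and 22 are mostly red (high) and the row of Flox mouse 6 is mostly blue (low), while Rps27a at the far left of the lower panel changes from mouse to mouse.

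In 6 genes every EpithelialKO mouse lay above every Flox mouse, and in 0 genes did the reverse hold; of all tested genes, 1.63% were apart in the higher and 1.48% in the lower direction. The 6 are Rps4x, Rpl29, Rps26, Rpl23a, Rpl4 and Rps2, of which the rule for named genes always named Rps4x and took Rpl29, Rps26 and Rpl23a for their low p. Rpl4 and Rps2 are outside that rule and were chosen after their values were seen.

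Rps4x (Entrez 20102, chrX:102184941-102189391), a small subunit protein encoded on the X chromosome, had the lowest p of the set. It had 719.7, 639, 697, 662 and 859 CPM in EpithelialKO mice 17, 18, 20, 21 and 22, against 589, 538, 554, 491 and 513 CPM in Flox mice 2, 3, 4, 5 and 6; values of other genes below follow these orders. The lowest EpithelialKO mouse, 18, was above the highest Flox mouse, 2, and EpithelialKO mouse 22 stood highest. The log2 fold change was 0.41 ± 0.10 (SE), with an edgeR adjusted p of 0.114. Because it is X-linked it was also compared without Flox mice 4 and 6, where the log2 fold change was 0.41, with an edgeR adjusted p of 0.493.

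Rpl29 (Entrez 19944, chr9:106428889-106431568), a large subunit protein whose loss in mice reduces body growth, had 609.6, 532, 608, 517 and 638 CPM in EpithelialKO lungs, against 452, 495, 426, 436 and 402 CPM in Flox lungs. The groups were close but did not overlap, with EpithelialKO mouse 21 the lowest of its group and Flox mouse 3 the highest of its own. Its log2 fold change was 0.39 ± 0.09, with an edgeR adjusted p of 0.114.

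Rps26 (Entrez 27370, chr10:128624529-128626506), which lines the path of the mRNA as it leaves the small subunit, had 904, 779, 910.3, 747 and 898 CPM in EpithelialKO lungs and 621, 703, 670.4, 633 and 636 CPM in Flox lungs. EpithelialKO mice 17, 20 and 22 were alike, mice 18 and 21 were lower, and all Flox mice were lower still. The log2 fold change of Rps26 was 0.38 ± 0.09, with an edgeR adjusted p of 0.116.

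Rpl23a (Entrez 268449, chr11:78180935-78183584), at the mouth of the exit tunnel where the signal recognition particle docks, had 1134, 932, 1108, 843 and 1042 CPM in EpithelialKO lungs, against 779, 841, 775, 829 and 735 CPM in Flox lungs. EpithelialKO mouse 21 was just above Flox mouse 3, so the groups were barely apart. Its log2 fold change was 0.35 ± 0.10, with an edgeR adjusted p of 0.154. Rpl23a shares 85.7% of its 50-base windows with transcripts of other genes, so its counts are uncertain if such reads were split or dropped.

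In DESeq2, Rps26, Rpl29, Rps4x, Rpl23a and Rpl26 passed the adjusted threshold, as 0.719% of all tested genes did in the higher direction. The DESeq2 adjusted p were 0.0053 for Rps26, 0.00677 for Rpl29, 0.00742 for Rps4x and 0.0292 for Rpl23a. That of Rpl26 was 0.05 after rounding, so it lay at the threshold. With 1 surrogate variable in edgeR, only Rps4x of the set passed, with an adjusted p of 0.0486, as 0.183% of all tested genes did in the higher direction.

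Exit tunnel proteins, which touch the growing chain or surround the tunnel's mouth, were all higher by value: 8 of 8 tested genes, with a median log2 fold change of 0.24 and 5 at an unadjusted p under 0.05. All tested genes stood at 50.1% above 0 and 5.87% higher at that p, and the 78 members at 72 above 0 and 31 at that p, with a median of 0.21. Rpl4 (Entrez 67891, chr9:64173387-64178562), which reaches into the tunnel, had 1497, 1361, 1489, 1335 and 1592 CPM in EpithelialKO lungs and 1265, 1273, 1229, 1154 and 1083 CPM in Flox lungs. The lowest EpithelialKO mouse exceeded the highest Flox mouse, mouse 3, and the log2 fold change was 0.28 ± 0.09 (edgeR adjusted p 0.212). Rpl26 (Entrez 19941, chr11:68901566-68904534), which carries the UFM1 modification on ribosomes of the endoplasmic reticulum in human cells, had 1178, 957, 1171, 961 and 1169 CPM in EpithelialKO lungs and 796, 959, 823, 941 and 785 CPM in Flox lungs. Flox mouse 3 lay between EpithelialKO mice 18 and 21, and the log2 fold change of Rpl26 was 0.34 ± 0.10 (edgeR adjusted p 0.176). Rpl39, the small protein that lines the tunnel, was counted in 4 of the 10 mice, at no more than 7 counts. Its counts were 1, 0, 0, 1 and 0 in EpithelialKO lungs, against 0, 6, 7, 0 and 0 in Flox lungs, so no comparison was made for it. What the authors' counting did with reads matching several copies is unstated in the labels and notes.

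The 5S ribonucleoprotein is formed by Rpl5 and Rpl11, which join 5S rRNA and, when free, bind the p53 regulator MDM2. Rpl5 (Entrez 100503670, chr5:107900508-107909005) had 1377, 1220.4, 1604, 1445 and 1695 CPM in EpithelialKO lungs and 1129, 1281, 1223, 1173 and 1106 CPM in Flox lungs. EpithelialKO mouse 18 was below Flox mice 3 and 4, and the other EpithelialKO mice were above all Flox mice. The log2 fold change of Rpl5 was 0.31 ± 0.10 (edgeR adjusted p 0.21), and 93.8% of its windows occur in other genes. Rpl11 had 726, 642, 778, 635 and 819 CPM in EpithelialKO lungs and 629, 769.8, 692, 616 and 617 CPM in Flox lungs, with wide overlap. Its log2 fold change was 0.11 ± 0.10 (edgeR adjusted p 0.685), smaller by value than that of Rpl5; the difference between these genes was not tested.

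The P stalk recruits elongation factors to the large subunit, and its parts differed by value, although differences between them were not tested. Of its 4 genes, 3 had fold changes above 0, where 50.1% of all tested genes did. The highest was that of Rpl12, with a log2 fold change of 0.28 ± 0.11 (edgeR adjusted p 0.289). Rplp0, the stalk base, had 2104, 1899, 2036, 1679 and 1850.4 CPM in EpithelialKO lungs and 1635, 1749, 1707, 1689 and 1499 CPM in Flox lungs. EpithelialKO mouse 21 lay among the Flox mice and the other EpithelialKO mice lay above them. The log2 fold change was 0.21 ± 0.09 (edgeR adjusted p 0.357). Rplp1, a tip protein that pairs with Rplp2, averaged 1332 ± 154 CPM in EpithelialKO lungs and 1262 ± 162 CPM in Flox lungs, a log2 fold change of 0.08 ± 0.11. Rplp2 had 515, 428, 459, 337 and 313 CPM in EpithelialKO lungs and 378, 506, 376, 632 and 339 CPM in Flox lungs. Flox mouse 5 was the highest of all mice, and the log2 fold change of -0.12 ± 0.18 (edgeR adjusted p 0.831) became 0.04 without that mouse.

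Near the peptidyl transferase centre, Rpl3 and Rpl10 differed by value, although the difference between them was not tested. Rpl8, the third tested gene of this site, lay between them, with a log2 fold change of 0.13 ± 0.10 (edgeR adjusted p 0.629). Rpl3, which contacts the catalytic rRNA, averaged 1577 ± 182 CPM in EpithelialKO lungs and 1333 ± 103 CPM in Flox lungs, with a log2 fold change of 0.24 ± 0.10 (edgeR adjusted p 0.316). Rpl10, an X-linked protein added late in subunit maturation, had 1271, 1200.0, 1374, 1152 and 1367 CPM in EpithelialKO lungs and 1339, 1382, 1252, 1373 and 1159.7 CPM in Flox lungs. The groups overlapped over nearly their whole range, and the log2 fold change was -0.03 ± 0.09 (edgeR adjusted p 0.929). Rpl10 shares 92.1% of its windows with other genes. Of the 3 tested X-linked genes, Rps4x and Rpl36a were above 0 and Rpl10 was not. Without Flox mice 4 and 6, the log2 fold change was 0.41 for Rps4x, 0.20 for Rpl36a and -0.10 for Rpl10.

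On the small subunit, 7 of 7 tested proteins at the mRNA entry and decoding site and 4 of 5 at the mRNA exit had fold changes above 0, with medians of 0.22 and 0.27. At an unadjusted edgeR p under 0.05, 1 of the 7 and 3 of the 5 were higher. The 78 members stood at 72 above 0 and 31 at that p, with a median of 0.21. All tested genes stood at 50.1% above 0 and 5.87% higher at that p. Rps2 (Entrez 16898, chr17:24718121-24721927), part of the entry channel helicase, had 1250.1, 1205, 1194, 1134 and 1301 CPM in EpithelialKO lungs and 1071, 1114, 1064, 967 and 903 CPM in Flox lungs. The groups did not overlap, although EpithelialKO mouse 21 and Flox mouse 3 were close, and the log2 fold change was 0.25 ± 0.09 (edgeR adjusted p 0.257). Rps14, a protein of the mRNA exit whose gene is lost in the human 5q deletion syndrome, was the most counted gene of the set. It had 2524, 1931, 2501, 2260.3 and 2984 CPM in EpithelialKO lungs and 1691, 2091, 1864, 2066 and 1692 CPM in Flox lungs. EpithelialKO mouse 22 was far the highest and mouse 18 lay among the Flox mice, and the log2 fold change was 0.38 ± 0.12 (edgeR adjusted p 0.186). Rpsa, the laminin receptor protein of the small subunit, averaged 2191 ± 212 CPM in EpithelialKO lungs and 1818 ± 185 CPM in Flox lungs, a log2 fold change of 0.27 ± 0.10 (edgeR adjusted p 0.277).

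Rps6, the target of the S6 kinases, had 1825, 1459.8, 1863, 1661 and 2078 CPM in EpithelialKO lungs and 1386, 1641, 1454, 1481 and 1326 CPM in Flox lungs. EpithelialKO mouse 18 was below Flox mice 3 and 5, and the others exceeded all Flox mice. The log2 fold change was 0.29 ± 0.10 (edgeR adjusted p 0.266). The 4 proteins ubiquitinated when ribosomes collide in human cells, Rps2, Rps3, Rps10 and Rps20, had a median of 0.22 on the log2 scale, and 1 of them was at an unadjusted p under 0.05. Of 17 genes mutated in human Diamond-Blackfan anaemia, 15 had fold changes above 0, 7 were higher at an unadjusted p under 0.05, and the median was 0.21, as for the whole set of members (31 of 78 at that p, and 5.87% of all tested genes).

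Rps27a, made as a fusion of ubiquitin to a small subunit protein, had the highest fold change of the set and the widest spread of any well-expressed member. It had 726, 464, 727, 546 and 337 CPM in EpithelialKO lungs and 231, 706, 508, 352 and 244 CPM in Flox lungs. Flox mouse 3 was near the highest EpithelialKO mice, and EpithelialKO mouse 22, high for most other genes, was low for this gene. The log2 fold change was 0.46 ± 0.35 (edgeR adjusted p 0.644).

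Of the 78 genes, 6 were lower by value in EpithelialKO lungs: Rpl3l, Rps29, Rplp2, Rpl36al, Rpl10 and Rps28. Rps29, a zinc-binding small subunit protein, had 313, 265, 359, 194 and 226 CPM in EpithelialKO lungs and 279, 337, 293, 308 and 274 CPM in Flox lungs. EpithelialKO mice 21 and 22 were the lowest of all mice and mouse 20 the highest, and the log2 fold change was -0.14 ± 0.14 (edgeR adjusted p 0.74). Rps28, at the mRNA exit, averaged 257 ± 55.7 CPM in EpithelialKO lungs and 261 ± 48.4 CPM in Flox lungs, a log2 fold change of -0.02 ± 0.15.

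Some ribosomal proteins have a second gene copy, and these paralogs are known for expression limited to certain tissues or for stress responses. Rpl36a and Rpl36al, which encode nearly the same large subunit protein from chromosomes X and 12, separated the groups in their ratio. Rpl36a (Entrez 19982, chrX:134585654-134588062) had 482, 391, 479, 354 and 446 CPM in EpithelialKO lungs and 317, 384, 327, 421 and 336 CPM in Flox lungs, overlapping through EpithelialKO mice 18 and 21 and Flox mice 3 and 5. Its log2 fold change was 0.27 ± 0.11 (edgeR adjusted p 0.319). Rpl36al (Entrez 66483, chr12:69182734-69184067) had 162, 136, 174, 131 and 146 CPM in EpithelialKO lungs and 147, 172, 149.6, 188 and 142 CPM in Flox lungs, a log2 fold change of -0.09 ± 0.11 (edgeR adjusted p 0.771). Rpl36al counts were 33.6%, 34.8%, 36.3%, 37.0% and 32.8% of Rpl36a counts in EpithelialKO lungs, against 46.3%, 44.7%, 45.8%, 44.8% and 42.2% in Flox lungs. Every EpithelialKO mouse was below every Flox mouse in this ratio, with means of 34.9 ± 1.76% in EpithelialKO lungs and 44.7 ± 1.59% in Flox lungs (SD, n = 5 each). The difference of -9.86 percentage points was -10.4 without Flox mice 4 and 6. The ratio was singled out after its values were seen, so no test is given. The genes share 85.5% (Rpl36a) and 63.3% (Rpl36al) of their windows with other genes, so both counts and their ratio are uncertain to that extent.

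The other paralogs overlapped between groups. Rps27l, a p53-inducible copy of Rps27, stood at 24.4 ± 3.69% of Rps27 counts in EpithelialKO lungs and 22.6 ± 0.993% in Flox lungs, with EpithelialKO mouse 22 highest at 30.4%. Rpl22l1, which can replace Rpl22, stood at 15.7 ± 0.958% of Rpl22 counts in EpithelialKO lungs and 17.1 ± 2.03% in Flox lungs. Rpl7l1 stood at 6.01 ± 0.572% of Rpl7 counts in EpithelialKO lungs and 6.62 ± 0.482% in Flox lungs. Rps4l, annotated as a transcribed pseudogene, stood at 5.75 ± 1.66% of Rps4x counts in EpithelialKO lungs and 6.53 ± 1.19% in Flox lungs. Rpl3l, the copy of Rpl3 used in heart and skeletal muscle, had 20, 4, 8, 0 and 17 counts in EpithelialKO lungs and 19, 8, 23, 9 and 1 in Flox lungs.

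**Figure D4:**
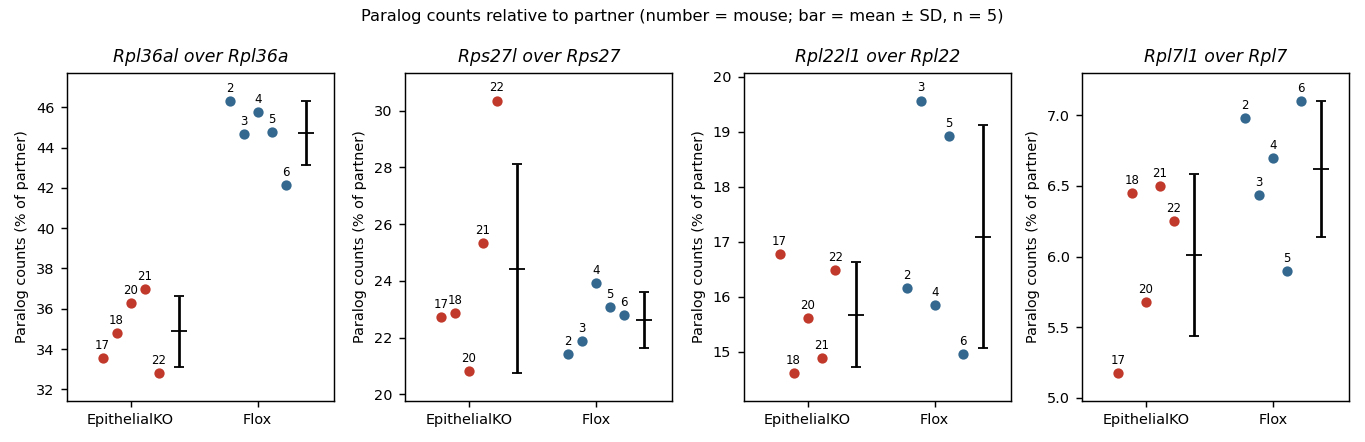
Counts of a paralog as a percent of its partner's counts in each mouse (numbered points), EpithelialKO left of Flox, with the mean ± SD of 5 mice as a black bar. For Rpl36al over Rpl36a the EpithelialKO mice lie between 32.8% and 37.0%, all below the Flox mice at 42.2% to 46.3%; the other ratios overlap.

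The untested copies were near or at 0. Rpl10l, a copy of Rpl10 used in male germ cells, had 0 counts in all 10 mice. Of 4 germ cell genes, Tnp1 and Prm1 were also at 0 in all mice, and Ddx4 and Dazl were not. The 4 summed to at most 0.49 CPM in EpithelialKO lungs and 0.65 CPM in Flox lungs. Rpl39l, the testis copy of Rpl39, had 0, 0, 15, 0 and 6 counts in EpithelialKO lungs and 0, 4, 0, 0 and 7 in Flox lungs. Rpl32l had 0, 7, 10, 12 and 9 counts in EpithelialKO lungs and 5, 14, 7, 15 and 8 in Flox lungs. These counts allow no comparison.

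Levels per kilobase of the principal GENCODE transcript varied among members although the ribosome holds most of these proteins, Rplp1 and Rplp2 aside, in a like number. Over both groups, the median was 865 CPM per kilobase, and the 90th percentile of 1758 was 6.00 times the 10th percentile of 293. Rpl41, the smallest ribosomal protein, had the highest level at 4500.1 CPM per kilobase, followed by Rps14 at 3619, Rps15 at 2731 and Rplp1 at 2599.9. Apart from Rpl3l, Rps15a had the lowest at 127 CPM per kilobase, on a principal transcript of 5179 bases that need not be the form used in lung. Rps20 followed at 203, on a principal transcript of 3706 bases to which the same limit applies, and Rpl22 at 234. Levels per kilobase, and so their spread among members, depend on the transcript length taken for each gene.

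Transcript length moved with the fold change, though not in order below 500 bases. Among other tested genes, the median log2 fold change was 0.09 for transcripts under 500 bases, 0.13 for transcripts of 500 to under 1000 bases, of which 71.8% were above 0, 0.07 for 1000 to under 2000 bases and -0.08 for 4000 bases and over. The members had medians of 0.11 (11 genes under 500 bases), close to the other genes of that class, 0.21 (42 genes of 500 to under 1000 bases) and 0.22 (21 genes of 1000 to under 2000 bases). With an offset per mouse for transcript length and GC content, the members' median was 0.10, 61 of 78 were above 0 (52% of all tested genes), and 17 were at an unadjusted p under 0.05 and higher, as 5.4% of all tested genes were. The part of length in the result was otherwise not tested. Of the 78 genes, 76 share at least 1 window of 50 bases with transcripts of other genes, and the median share was 53.5%, so their counts depend on how such reads were treated. The 44 genes with at least 50% of their windows in other genes had a median of 0.21 on the log2 scale, and 34 with less had 0.19.

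Cell type markers also moved with the groups. All 5 AT2 markers (Sftpc, Sftpb, Sftpa1, Lamp3 and Slc34a2) had fold changes above 0 and an unadjusted p under 0.05, and their summed level ran from 47492 to 58900 CPM in EpithelialKO lungs and from 39306 to 47321 CPM in Flox lungs. All 5 endothelial markers (Pecam1, Cdh5, Cldn5, Kdr and Plvap) were lower by value with an unadjusted p under 0.05, summing to 1643 to 2139 CPM in EpithelialKO lungs and 2189.9 to 2857 CPM in Flox lungs. All 4 fibroblast markers were lower likewise, with sums of 406 to 504 CPM in EpithelialKO lungs and 559.7 to 869 CPM in Flox lungs. None of these 14 markers was at 0 in all mice, and none passed the adjusted threshold in edgeR. With the endothelial sum as a covariate, chosen after seeing the data, the median of the ribosomal protein genes was 0.01 and 42 of 78 were above 0, as 50.3% of all tested genes were. With the AT2 sum it was 0.19 and 75 were above 0, against 49.8% of all tested genes. The endothelial and AT2 sums do not overlap between the groups, so their part and that of the genotype cannot be told apart.

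Without Flox mice 4 and 6, the median was 0.14, 66 of 78 genes were above 0 (50.3% of all tested genes), and 12 were at an unadjusted p under 0.05 and higher, as 3.54% of all tested genes were. Leaving out EpithelialKO mouse 20 alone gave 20 such genes (5.4% of all tested genes), and leaving out Flox mouse 6 alone gave 18 (4.23%).

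Other genes of the translation machinery were grouped by role, and 0 passed the adjusted threshold in edgeR. Rps3a1, a core protein of the small subunit, averaged 2194 ± 286 CPM in EpithelialKO lungs and 1882 ± 391 CPM in Flox lungs, a log2 fold change of 0.22 ± 0.13 (edgeR adjusted p 0.524). Of 20 other mRNAs known for a TOP tract, 20 were above 0, with a median of 0.18, and 7 were higher at an unadjusted p under 0.05, where 50.1% of all tested genes were above 0 and 5.87% were higher at that p. Eef1a1, the factor that delivers aminoacyl-tRNA, had 8484, 7969, 9185, 8752 and 9998 CPM in EpithelialKO lungs and 7470.2, 7602, 7409, 6667 and 6717 CPM in Flox lungs. The groups did not overlap, and the log2 fold change was 0.31 ± 0.09 (edgeR adjusted p 0.184). Tpt1, a TOP mRNA of a growth-related protein, averaged 2142 ± 165 CPM in EpithelialKO lungs and 1723 ± 144 CPM in Flox lungs, with a log2 fold change of 0.31 ± 0.09 (edgeR adjusted p 0.176). Elongation factors had a median of 0.15 (11 of 12 above 0) and initiation factors 0.15 (29 of 33), with Eif3f at 0.30 ± 0.09 and Eif2s2 at 0.31 ± 0.09.

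Medians were nearer 0 for genes that build or regulate ribosomes. For ribosome biogenesis genes the median was 0.06 on the log2 scale, with 26 of 41 above 0. Genes for rRNA transcription by RNA polymerases I and III had -0.02 (11 of 24 above 0), mTORC1 and LARP1 genes -0.03 (11 of 26), Rps6k kinases -0.08 (4 of 10) and the MYC and MAX family -0.02 (4 of 8). At an unadjusted edgeR p under 0.05, 2 of the 26 mTORC1 and LARP1 genes were higher and 1 was lower, against 5.87% and 6.52% of all tested genes. These were Rheb, the GTPase that activates mTORC1, at 0.32 ± 0.09, Rps6kb1 at 0.27 ± 0.10 and Sesn3, an mTORC1 inhibitor, at -0.56 ± 0.23. Their edgeR adjusted p were 0.153 for Rheb, 0.257 for Rps6kb1 and 0.335 for Sesn3. Factors that receive new chains at the ribosome or carry them to the endoplasmic reticulum had a median of -0.03 (6 of 14 above 0). At an unadjusted edgeR p under 0.05, 1 was higher and 4 were lower, against 5.87% and 6.52% of all tested genes. In 2 of the 14 every EpithelialKO mouse lay below every Flox mouse, as in 1.48% of all tested genes. Nacad, at a low level, had the lowest p of this group, with a log2 fold change of -1.39 ± 0.38 (edgeR adjusted p 0.153). In that group Sec61a1, the channel of the translocon, averaged 147 ± 8.66 CPM in EpithelialKO lungs and 175 ± 11.4 CPM in Flox lungs, with no overlap between groups, a log2 fold change of -0.25 ± 0.08 and an edgeR adjusted p of 0.222. Differences between these groups of genes were not tested.

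**Figure D5:**
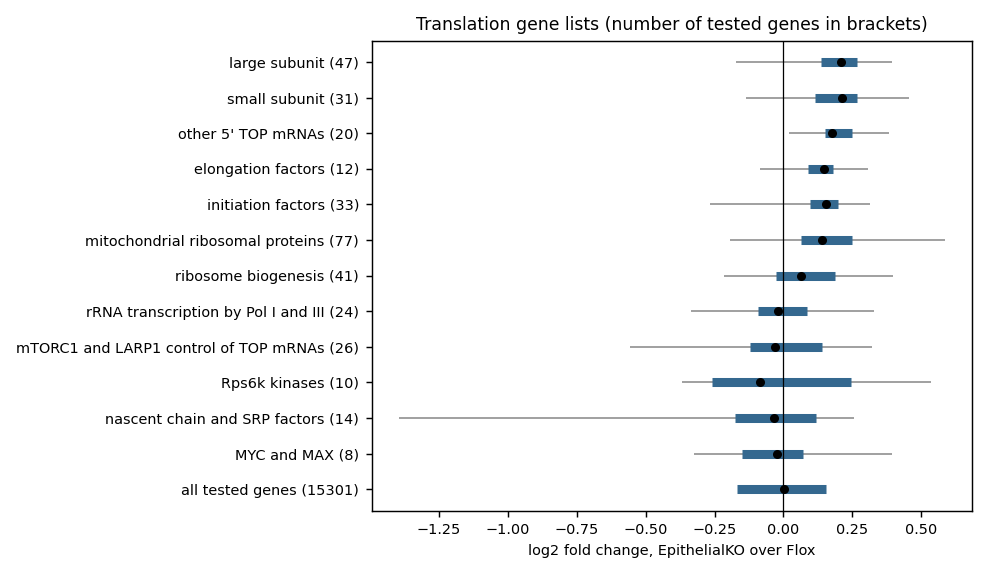
Log2 fold change of EpithelialKO over Flox for groups of translation genes, with the number tested in brackets; the dot is the median, the thick bar the interquartile range and the thin line the full range (not drawn for all tested genes). Both ribosomal subunits sit at a median of 0.21, the other TOP mRNAs at 0.18, and the lists of rRNA transcription, mTORC1, kinases, nascent chain factors and MYC at or below 0.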

How the data were processed

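Whole-lung RNA of 5 EpithelialKO and 5 Flox mice was sequenced. Trizol extraction, oligo(dT) selection and random-hexamer priming are recorded per the labels' protocols. Cutadapt, HISAT2 and the build GRCm38 are named in the submitters' processing notes. Versions, the counter, strand use and the handling of reads matching several genes were not given in the sources used here. For each mouse the authors deposited whole-number counts per Entrez gene, in 1 column, without normalization.

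RefSeq (GRCm38.p6) gave symbols for 25275 of 27179 rows, coordinates and starts. GENCODE M21 gave principal transcript lengths, GC content and the share of 50-base windows found in transcripts of other genes. Reads from near-identical copies may be split or lost, which can change the counts of such genes.

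Genes were filtered by filterByExpr at its defaults (minimum count 10), scaled by TMM and tested in edgeR 4.0.16 (R 4.3.3) with a robust quasi-likelihood F test on group alone. P-values were adjusted by Benjamini-Hochberg over all 15301 genes at a threshold of 0.05. CPM values are after TMM. The mice of a group are taken as separate animals from their numbers.

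The members and lists were chosen with earlier results of these data known. Named genes were the stalk, 5S, X-linked and paralog members, Rps6, Rps27a and Rpsa, the 5 members with the most counts, up to 6 of lowest p in each direction, 3 of lowest level, and up to 4 per related list.

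Alternatives were other scalings, DESeq2 1.42.0, limma-voom 3.58.1, other count filters, 1 surrogate variable (sva 3.50.0), an offset for length and GC content (known for 93.5% of tested genes), leaving out mice, and marker sums as covariates. The edgeR test was also tried on simulated counts drawn for each gene on its own. Those counts lack the shared deviations of genes within a mouse, and no result here rests on that trial. Marker lists not described otherwise were T cell (median log2 fold change -0.15), B cell (-0.45), ciliated (0.38), erythroid (0.28), cardiomyocyte (-0.01) and skeletal muscle (0.85). For skeletal muscle only 2 of 6 genes were tested, and the 6 summed to 2.49 to 14.8 CPM in EpithelialKO lungs and 1.83 to 6.08 CPM in Flox lungs. Of the germ cell genes, 0 were tested.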

Additional observations from a re-analysis of the deposited data

How the results depend on the processing

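The 0 members past the threshold in edgeR became 5 in DESeq2 and 1 with 1 surrogate variable, and stayed 0 in all other alternatives, every leave-one-out fit included. At an unadjusted p under 0.05, 31 members were higher, as 5.87% of all tested genes were, and shares in brackets below are of all tested genes likewise. The count was 19 (3.28%) with scaling to total counts, which moved the median of all genes by -0.06. It was 12 (3.54%) without Flox mice 4 and 6. With the offset for length and GC content, 17 (5.4%) were higher and 3 were lower. The count was 13 (3.67%) with the AT2 sum and 0 (2.18%) with the endothelial sum as a covariate, both chosen after seeing the data. Without 1 mouse it ran from 18 (4.23%, without Flox mouse 6) to 43 (5.48%, without Flox mouse 3). The 72 members above 0 were 42 with the endothelial sum and 69 to 75 without 1 mouse. The median log2 fold change of ribosomal protein genes, 0.21, was 0.0139 with the endothelial sum; the median log2 fold change of large subunit genes was then 0.0238 and the median log2 fold change of small subunit genes 0.0054. Over all members it was 0.17 to 0.26 without 1 mouse. The large minus small difference of medians, -0.01, ran from -0.01 to 0.01 without 1 mouse. The difference in the ratio of large to small subunit counts was -0.00202 without the 5 most counted members and -0.0304 to -0.0144 without 1 mouse. The 0 genes of related lists past the threshold were 6 in DESeq2, which 1.82% of all tested genes passed in either direction. Those lists hold from 4 to 77 tested genes each, and some genes are in more than 1 list. The number of different genes in them was not counted, so the 6 are not read as above or below that share. Over all genes, the 6 past the threshold were 22 with total counts, 279 in DESeq2, 32 in limma-voom, 34 with no count filter, 79 with 1 surrogate variable, and 0 without Flox mice 4 and 6, with the offset or with either marker sum; without 1 mouse they were 0 to 48, the 48 without Flox mouse 5. The cause of these changes was not tested. Among the named genes, for which alternatives were compared gene by gene, Rplp1, Rplp2, Rpl10, Rpl11, Rps6, Rpl3l, Rps27, Rps27l, Rpl22l1, Rpl22, Rps14, Rpl41, Rpl13a, Rps29 and Rps28 changed sign in at least 1 alternative, none of them called. No paired analysis was possible because the groups share no mouse number. With 5 mice a group, the typical 95% interval of a member spans 0.224 on the log2 scale to either side, so smaller differences were not detectable.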

Other observations

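Mitochondrial ribosomal protein genes, which encode the separate ribosome that translates the mitochondrial genome, had fold changes above 0 in 67 of 77 tested genes, with a median log2 fold change of 0.14. At an unadjusted p under 0.05, 15 were higher and 0 were lower, and 0 passed the adjusted threshold in edgeR. Of all tested genes, 50.1% were above 0, 5.87% were higher and 6.52% were lower at that p. Mrps2, a protein of the small mitochondrial subunit, had 21.1, 16.8, 20.6, 24.0 and 19.1 CPM in EpithelialKO lungs and 13.1, 15.9, 13.1, 13.8 and 13.3 CPM in Flox lungs, with no overlap between the groups. Its log2 fold change was 0.55 ± 0.14, with an edgeR adjusted p of 0.125. Mrps22 averaged 14.7 ± 3.70 CPM in EpithelialKO lungs and 9.79 ± 1.24 CPM in Flox lungs, a log2 fold change of 0.59 ± 0.18 (edgeR adjusted p 0.186). Mrpl32, of the large mitochondrial subunit, averaged 35.9 ± 3.22 CPM in EpithelialKO lungs and 27.5 ± 4.47 CPM in Flox lungs, a log2 fold change of 0.39 ± 0.12 (edgeR adjusted p 0.21).

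Retrotransposed copies outside the naming rule were also counted. Rps27rt stood at 12.2 ± 2.2% of Rps27 counts in EpithelialKO lungs and 11.2 ± 1.02% in Flox lungs (SD, n = 5 each), and Rpl37rt at 6.16% to 8.28% of Rpl37 counts in EpithelialKO lungs and 6.25% to 7.38% in Flox lungs. Of 33 rows whose symbols end in -ps, 21 had at least 1 count in some mouse, so reads were assigned to processed copies as well as to the parent genes.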
